A study of Mus musculus with 8 samples.

Results

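HELLS was profiled by chromatin immunoprecipitation and sequencing in mouse embryonic fibroblasts, and 925 of its peaks were listed in E2f3-null but not in wild-type cells and lay off the E2F3 peaks of wild-type cells. They were chosen by the deposited peak lists: a HELLS peak of E2f3-null cells was kept when it shared no base with any wild-type HELLS peak or wild-type E2F3 peak. Of 4740 HELLS peaks listed without E2f3, 925 met the rule, or 19.5% (18.4 to 20.7). The choice therefore rests on HELLS reads of both genotypes, on wild-type E2F3 reads and on the IgG control reads that these peaks were called against. Those values, and the ratios to IgG at the sites, are given below as a description. H3K27me3 reads and the E2F3 antibody in null cells played no part in it. Most peaks of that antibody in null cells overlap wild-type E2F3 peaks, however, so its overlap with the sites is tied to the rule.

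HELLS is a helicase of the SNF2 family that remodels nucleosomes and is known for its part in DNA methylation and in silencing of repeats. E2F3 is a transcription factor that binds promoters of cell cycle genes together with a DP partner. H3K27me3 is laid down by Polycomb repressive complex 2 and, in fibroblasts, marks many silent developmental genes.

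The cells were taken at E13.5 and were either E2f3-/- or wild type, with no other treatment named in the labels. In each genotype 1 library was made with an antibody against HELLS, 1 against E2F3, 1 against H3K27me3 and 1 with IgG. Each group is thus 1 library, whether a library came from 1 embryo or several is not stated in the labels, and every comparison is between libraries and not conditions. No p-value is given, and the 95% intervals in brackets are exact and reflect counting error alone. The labels give 10 µg of antibody, 22 PCR cycles and fragments of 200 to 300 bp for all libraries. The HELLS, E2F3 and H3K27me3 libraries held 5377465, 4303093 and 3799779 distinct reads in E2f3-null cells and 5318920, 4775822 and 5640555 in wild-type cells. The IgG files of both genotypes were identical and served as 1 background library of 7219419 distinct reads. Its 7223444 lines are close to the 7235504 control tags that the peak headers name for both genotypes together, so every ratio to IgG is to 1 background that may pool the genotypes. All positions are on mm9, the build of the files, and no gene is named because no gene table of that build was used here. Fibroblast identity was therefore not analysed here.

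The peaks were narrow and mostly near the cutoff of the peak list. Their median length was 527 bp (quartiles 397 and 678, range 209 to 1925), against 721 bp for the 2559 null-only HELLS peaks that do lie on a wild-type E2F3 peak and 804 bp for the 1256 null HELLS peaks that overlap a wild-type HELLS peak. The authors' score, which is 10 times the negative log10 of the peak caller's p-value, had a median of 66.6, against 88.9 and 115 in those other classes, where the lists began at 50. Of the 925, 180 (19.5%) scored 100 or more and 15 scored 200 or more. The authors' false discovery rate reached at most 3.65% in the 925. Some other lists were looser. Rates were above 5% at 1140 of 3314 E2F3 antibody peaks and 4621 of 7079 H3K27me3 peaks in null cells, and at 2196 of 2489 HELLS peaks in wild-type cells. The wild-type lists of E2F3 (8889 peaks) and H3K27me3 (17064 peaks) held 0 peaks above 5%.

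They were spread over all chromosomes rather than gathered in blocks. Only 18 neighbouring pairs lay within 10 kb of each other. The nearest wild-type E2F3 peak was a median of 47.8 kb away (quartiles 14.9 and 117) and the nearest wild-type HELLS peak 187 kb. Within 1 kb of an E2F3 peak there were 75 of them, and 261 were more than 100 kb from one. On chromosome X, 22 of 65 null HELLS peaks belonged to the set, or 33.8% (22.6 to 46.6), against 903 of 4675, or 19.3% (18.2 to 20.5), elsewhere. Chromosome X also took a larger share of all reads in E2f3-null than in wild-type cells, with 3.49% against 2.87% for HELLS, 3.52% against 2.89% for E2F3 and 4.97% against 3.09% for H3K27me3. Chromosome Y took a smaller share, with 0.0289% of null against 0.0585% of wild-type HELLS reads, 0.0282% against 0.0567% for E2F3 and 0.0212% against 0.0380% for H3K27me3. The labels give no sex for the embryos, so a different mix of sexes and the genotype cannot be told apart in the chromosome X values.

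HELLS reads at the 925 sites were higher in the null library, as the choice of sites requires, but wild-type cells also had HELLS reads there. The null library held a median of 18 reads per site (range 8 to 82) and the wild-type library 12 (range 0 to 63), beside 10 IgG reads (range 0 to 49). Summed over all sites there were 19019 null and 12938 wild-type reads, a ratio of 1.46 (1.43 to 1.49) after scaling by reads outside peaks. On the log2 scale the ratio had a median of 0.61 (quartiles 0.29 and 1.07), and 0.41 over all 4740 null HELLS peaks. A site was called higher or lower when the ratio was at least 2-fold and its interval excluded 1. By this criterion 130 sites were higher, or 14.1%, against 6.56% of all null HELLS peaks, and 0 were lower, against 0.0211%. Since the rule used this contrast, nothing is read from these shares. At 776 sites (83.9%) the interval of the ratio included 1.

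Reads of the HELLS antibody exceeded scaled IgG reads at the sites in both genotypes, in null cells in part by the choice of sites. The null HELLS peaks were called against IgG control reads. Every ratio to IgG at the sites is thus tied to that choice and is a description. Summed HELLS reads were 2.47 times the scaled IgG reads in null cells (2.41 to 2.53) and 1.69 times in wild-type cells (1.65 to 1.73). The E2F3 antibody in E2f3-null cells gave 1.77 times (1.72 to 1.82) at the same sites. Whether the wild-type excess reflects HELLS itself was not tested. Site by site, 601 exceeded IgG by the same criterion in the null library, or 65.0% against 84.5% of all null HELLS peaks. In the wild-type library 135 did, or 14.6% against 48.8%. IgG reads themselves were 5.31 times as dense at the sites (5.21 to 5.41) as outside peaks, taking the authors' effective genome of 1.87 Gb as the length. Across the 925 sites null HELLS density had a Spearman correlation of 0.68 with IgG density and 0.68 with wild-type HELLS density. All 3 share the positions and base composition of the sites, and this is a description of sites, not of replicates.

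Reads of every library, IgG included, were densest at the HELLS summit. Within 200 bp of the HELLS summit, null HELLS reads were 12.1 times as dense as 2 to 3 kb away (11.8 to 12.5), and wild-type HELLS reads 7.48 times (7.25 to 7.73). The E2F3 antibody gave 8.35 (8.05 to 8.65) in null and 9.77 (9.47 to 10.1) in wild-type cells, and IgG gave 4.44 (4.30 to 4.58). H3K27me3 gave 6.02 (5.84 to 6.21) in null and 10.8 (10.5 to 11.0) in wild-type cells. The null HELLS value is raised by placing the window at that library's own summit. Reads of the forward strand lay on the left and those of the reverse strand on the right of the summit in every library. Their mean 5′ ends were 81.6 bp apart for null HELLS, 59.6 bp for wild-type HELLS, 57.3 bp for the E2F3 antibody in null cells and 41.3 bp for IgG.

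**Figure D1:**
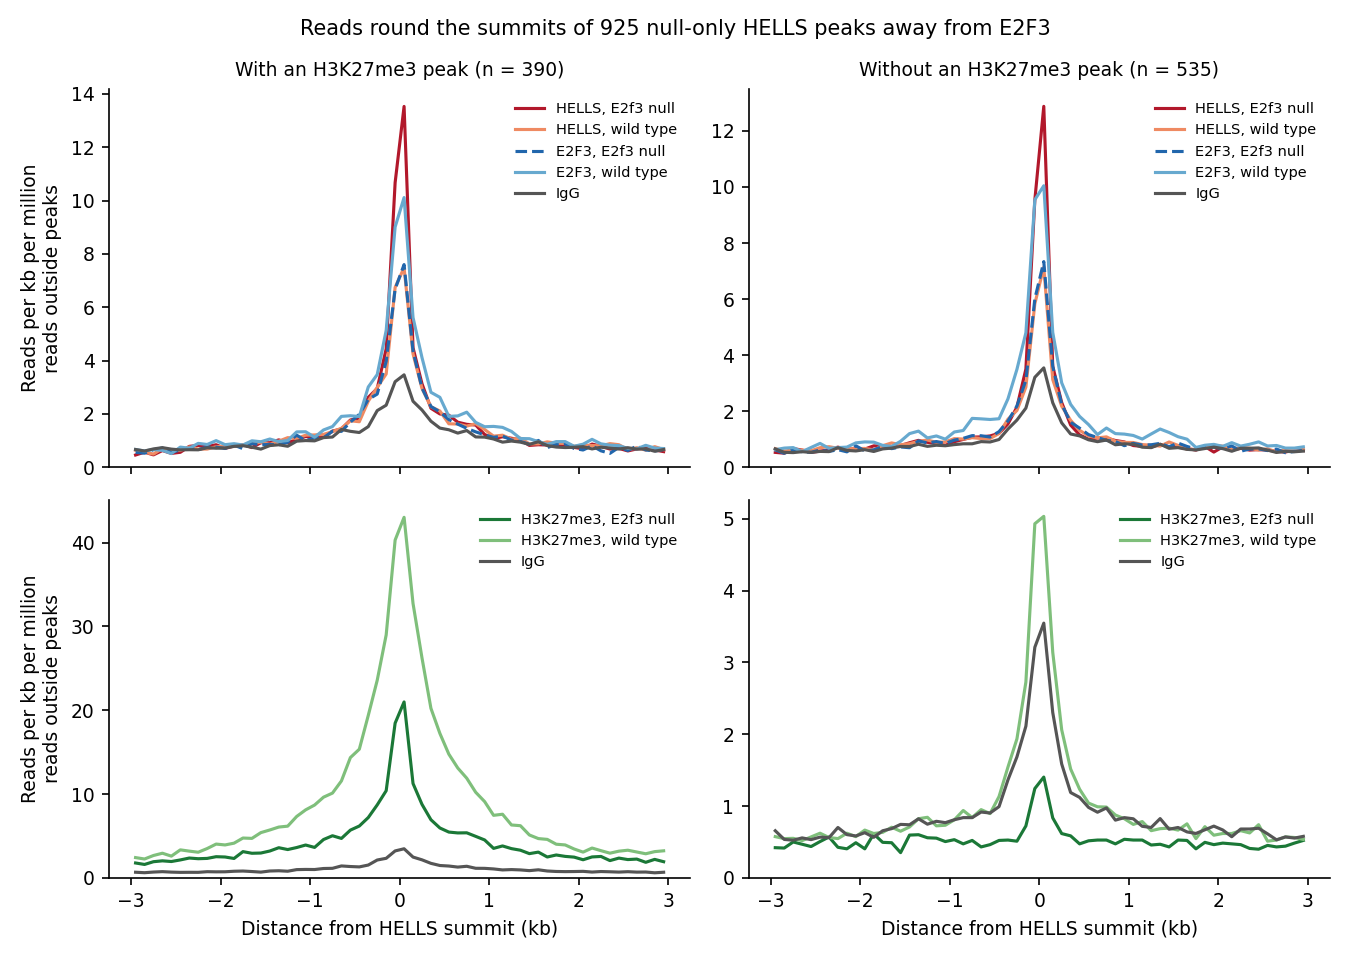
Read density (y, reads per kb scaled by reads outside peaks, in RPKM) against distance from the HELLS summit in kb (x), in bins of 100 bp, for 390 sites with an H3K27me3 peak in either genotype (left) and 535 without (right). The upper panels show HELLS, E2F3 and IgG and the lower ones H3K27me3 and IgG, each line 1 library. At the summit on the right, HELLS stands at 12.9 in null and 7.14 in wild-type cells, and H3K27me3 lies below the 3.55 of IgG in null cells and above it, at 5.03, in wild-type cells.

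The 10 sites with the highest authors' score carried HELLS reads in wild-type cells as well, and most carried H3K27me3. All 10 had more null than wild-type HELLS reads after scaling, with ratios between 1.07 and 2.16, though for 2 of them the log2 ratio was below 0 (-0.08 and -0.04) under the scaling to regions listed in both genotypes. Of the 10, 1 was called higher. Of these 10, 8 lay on a wild-type H3K27me3 peak, 7 on a null one and 8 on a peak of the E2F3 antibody in null cells. In that order the shares were 41.4%, 32.6% and 31.8% of all 925, and 56.1%, 50% and 56.1% at score 100 or more. The highest-scoring site, chr4:46357412-46358351, held 52 HELLS reads in null and 38 in wild-type cells, 1.36 times as many after scaling (0.877 to 2.12), and 19 IgG reads. The E2F3 antibody had 39 null and 31 wild-type reads there, although no wild-type E2F3 peak was listed within 39 kb. The Polycomb mark was present in both genotypes, with 142 null and 330 wild-type H3K27me3 reads.

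The other sites of this group split into those on a listed H3K27me3 peak and those on none. At chr15:100882925-100884429 there were 82 null and 61 wild-type HELLS reads, the null count being the highest of the 925, and 144 null and 384 wild-type H3K27me3 reads. At chr11:120521423-120522625 there were 49 null and 32 wild-type HELLS reads and 58 null and 289 wild-type H3K27me3 reads. Both are strongly marked in wild-type cells and keep a listed H3K27me3 peak without E2f3. At chr10:79957425-79958815 the HELLS counts were 63 in null and 50 in wild-type cells, with 147 null and 431 wild-type H3K27me3 reads. At chr16:18581869-18582976 HELLS counts were 52 in null and 38 in wild-type cells, with 100 null and 315 wild-type H3K27me3 reads. The site chr7:4981764-4982632 was the called one, with 37 null and 17 wild-type HELLS reads, a ratio of 2.16 (1.19 to 4.09). It had no listed H3K27me3 peak, and lay 111 bp from a wild-type HELLS peak. H3K27me3 reads there were 5 in null and 33 in wild-type cells, the latter 3.24 times scaled IgG (1.71 to 6.42). The site chr9:96619897-96620507 had 41 null and 38 wild-type HELLS reads (ratio 1.07, 0.672 to 1.71), with 0 null and 12 wild-type H3K27me3 reads. It is thus a case of nearly equal HELLS counts in a peak listed in 1 genotype alone.

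**Figure D2:**
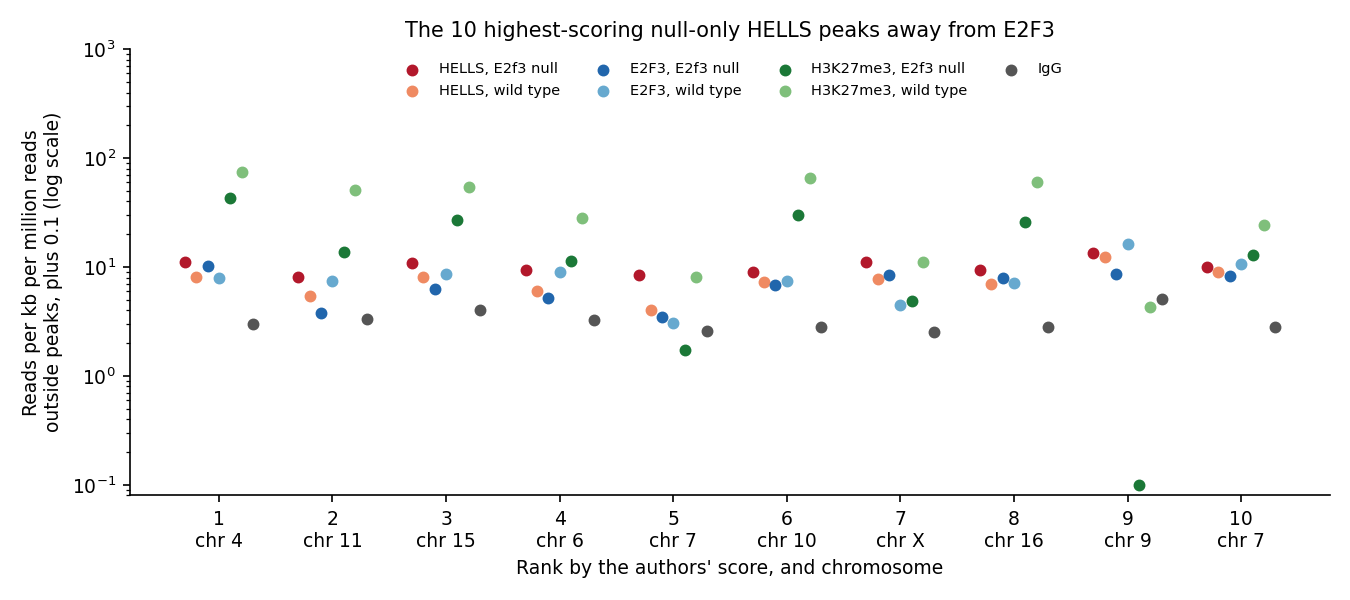
Read density (RPKM, scaled by reads outside peaks) plus 0.1 on a log axis (y) for the 10 highest-scoring sites in order of score (x), with 1 point per library. Null HELLS points lie above wild-type HELLS points at all 10 sites, with ratios of 1.07 to 2.16, and H3K27me3 points span the widest range between sites.

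The sites with the largest HELLS ratios, looked up after their values were seen, held few reads. Each of the top 5 had 9 or 10 HELLS reads in null and 0 in wild-type cells. The top one, chr12:77293938-77294350, had 10 null HELLS reads against 0 in wild type and 2 IgG reads. The interval of its ratio began at 2.23. None of the top 5 held more than 3 reads in any other library. There were 16 sites with 0 wild-type HELLS reads, and 15 of them had no H3K27me3 peak, against 535 of all 925 (57.8%). The 16 were picked by a value that the rule used, so this is a description. The 130 sites called higher had a median of 12 null and 3 wild-type HELLS reads, while the other 795 had 19 null and 14 wild-type reads. Of the 130, 16.9% (10.9 to 24.5) lay on a peak of the E2F3 antibody in null cells, against 34.2% (30.9 to 37.6) of the 795. Their shares on H3K27me3 peaks were lower too, at 31.5% against 43.0% in wild-type and 21.5% against 34.5% in null cells. The 130 also held fewer IgG reads, with medians of 4 against 11. Since the split rests on the HELLS contrast that the rule used, these shares are a description.

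Reads of the E2F3 antibody exceeded IgG at the sites in both genotypes, although the rule left out wild-type E2F3 peaks and the null cells are labelled E2f3-/-. What the antibody bound in null cells was not tested. The median count per site was 10 in null cells (range 0 to 62) and 15 in wild-type cells (range 0 to 71). Summed reads were 1.77 times the scaled IgG reads in null cells (1.72 to 1.82) and 2.43 times in wild-type cells (2.38 to 2.50). At null-only HELLS peaks on a wild-type E2F3 peak these values were 2.04 in null (2.01 to 2.07) and 5.51 in wild-type cells (5.46 to 5.57). By the 2-fold criterion 181 sites exceeded IgG in null cells, or 19.6% against 46.4% of all null HELLS peaks. In wild-type cells 472 did, or 51.0% against 89.5%, and since the rule used wild-type E2F3 peaks this is a description. The 850 sites more than 1 kb from an E2F3 peak had a wild-type ratio to IgG of 2.43 (2.36 to 2.49), and the 75 nearer ones 2.51 (2.32 to 2.73).

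E2F3 antibody reads were lower in null than in wild-type cells by a summed ratio of 0.727 (0.709 to 0.745), but this direction turned, to 1.62 (1.58 to 1.66), when libraries were scaled to the regions listed in both genotypes. The median log2 ratio was -0.41 (quartiles -0.85 and 0.06), against -1.16 over all null HELLS peaks. There were 86 sites called lower, or 9.30% against 56.9%, and 2 called higher, or 0.216% against 0.0422%. Wild-type E2F3 peaks were kept out by the rule, so the small fall is in part fixed by the choice of sites. Of the calls 97.7% were thus lower, but under the scaling to shared regions 154 were higher and 1 lower, so that 0.645% of calls were lower. The 2 sites called higher both lay on H3K27me3 peaks of both genotypes, as did 31.9% of all 925. Both also lay on E2F3 antibody peaks of null cells, as did 31.8%. At chr12:74046322-74047169 there were 18 null and 7 wild-type E2F3 antibody reads, a ratio of 2.67 (1.06 to 7.57), with 26 null and 11 wild-type HELLS reads. At chr3:127336157-127336477 there were 11 null and 3 wild-type reads of this antibody, a ratio of 3.81 (1.01 to 21.3).

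**Figure D3:**
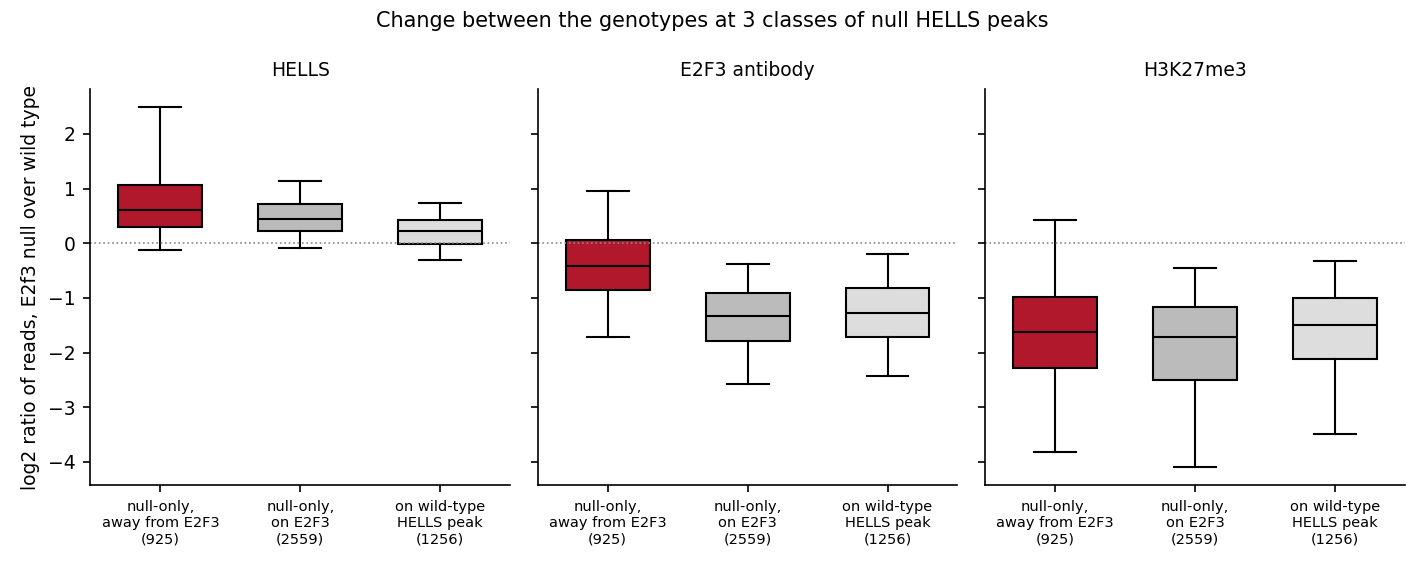
Log2 ratio of reads in E2f3-null over wild-type libraries (y) for HELLS, the E2F3 antibody and H3K27me3 at 3 classes of null HELLS peaks (x), with 0.5 added to both counts. Boxes give the median and quartiles and whiskers the 5th and 95th percentiles. The medians at the 925 sites are 0.61, -0.41 and -1.63, and the E2F3 median of the 2559 null-only peaks on E2F3 is -1.32.

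Listed peaks of the E2F3 antibody in null cells covered fewer of these sites than of the other null HELLS peaks, in part because of the rule. Of the 3314 peaks on that list only 799 lay off wild-type E2F3 peaks. The rule kept the sites off wild-type E2F3 peaks, while the null-only peaks on E2F3 lie on them by definition. The shares by class are therefore a description, at any score. In null cells 294 of the 925 lay on one, or 31.8% (28.8 to 34.9), against 52.3% (50.4 to 54.3) of the null-only peaks on E2F3 and 63.2% (60.5 to 65.9) of the null peaks on a wild-type HELLS peak. The 925 also scored lower, as given above. Among peaks of score 100 or more, a comparison added after these values were seen, the shares were 56.1% (48.5 to 63.5) of 180 sites, 71.5% (68.7 to 74.2) of 1064 null-only peaks on E2F3 and 77.4% (74.2 to 80.3) of 756 null peaks on a wild-type HELLS peak. From the other side, 297 of the 3314 E2F3 antibody peaks in null cells, or 8.96%, held a site. Of the 799 E2F3 antibody peaks with no wild-type E2F3 counterpart, 288 held a site, or 36.0% (32.7 to 39.5), and 326 held any null HELLS peak. Where both lay together, the summits were a median of 50.5 bp apart, and 87.4% were within 250 bp. On these 294 sites the HELLS ratio was 1.33 (1.28 to 1.37) and on the other 631 it was 1.56 (1.52 to 1.61). The rule used the HELLS contrast, so nothing is read from this difference.

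The sites with the most E2F3 antibody reads per kb in null cells had them in wild-type cells too. At chr15:94419843-94420347 there were 26 null and 31 wild-type E2F3 antibody reads, beside 19 IgG reads and 24 null and 21 wild-type HELLS reads. At chr6:115310761-115311243 there were 24 null and 14 wild-type reads, 4.10 times IgG in null cells (1.89 to 9.61). At chr2:152897602-152897959 both libraries held 18. There HELLS gave 11 reads in null and 20 in wild-type cells, with a ratio of 0.546 (0.236 to 1.20), although the peak was listed in null cells alone.

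H3K27me3, which the rule did not use, was listed at more of these sites than at other HELLS peaks. Of the 925, 383 lay on a wild-type H3K27me3 peak, or 41.4% (38.2 to 44.7). This share was 22.1% (20.5 to 23.7) at null-only HELLS peaks on E2F3, 26.9% (24.5 to 29.5) at null peaks on a wild-type HELLS peak and 11.6% (9.46 to 14.0) at 793 HELLS peaks listed in wild type alone with no E2F3 peak. Those 793 were short and weakly supported, with a median of 321 bp and false discovery rates of 4.60% to 10.2%. On the H3K27me3 list of null cells lay 302 of the 925, or 32.6% (29.6 to 35.8). The share there was 13.1% (11.8 to 14.5) for null-only peaks on E2F3, 16.6% (14.5 to 18.7) for null peaks on a wild-type HELLS peak and 5.42% (3.95 to 7.23) for the wild-type-only peaks. The intervals of the 925 sites did not overlap those of the other classes in either list. The H3K27me3 peaks that held a site were long and strong, with a median length of 1116 bp in null and 1639 bp in wild-type cells, where the medians of the whole lists were 588 bp in null and 590 bp in wild-type cells. The HELLS and H3K27me3 summits were a median of 66.5 bp apart in null and 107 bp in wild-type cells.

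**Figure D4:**
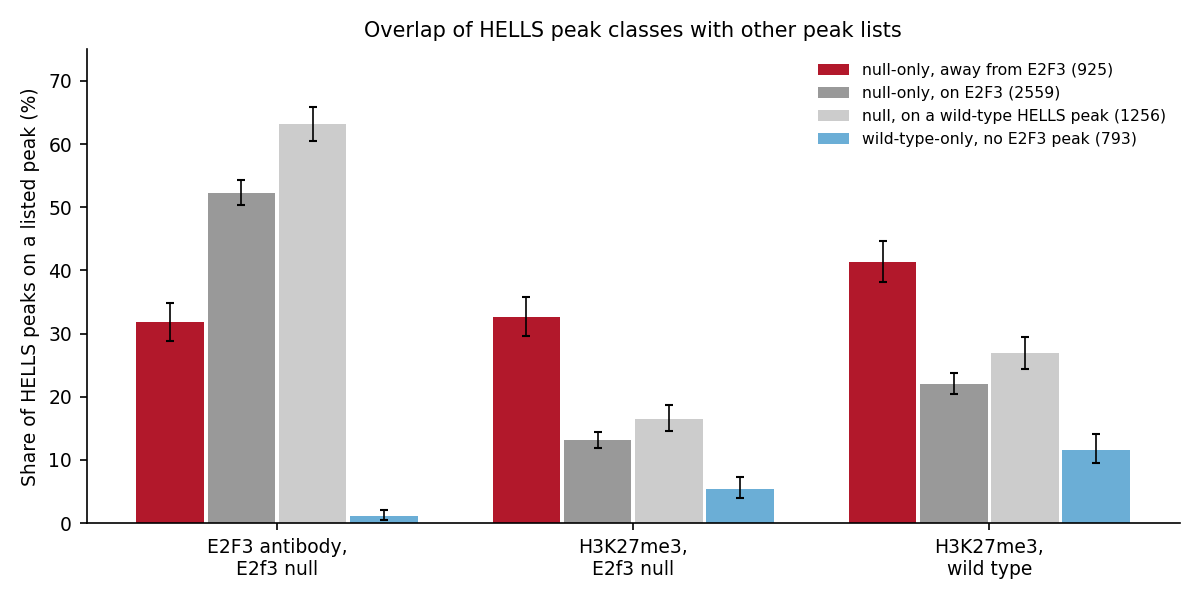
Share of HELLS peaks that overlap a listed peak (y, in percent, with exact 95% intervals) for 3 lists (x) and 4 classes of HELLS peaks, with the number of peaks in brackets. The 925 sites stand highest for both H3K27me3 lists, at 32.6% and 41.4%, and below both other classes of null HELLS peaks for the E2F3 antibody in null cells, at 31.8%. That last order is in part fixed by the rule, which kept the sites off wild-type E2F3 peaks.

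By both lists together, 295 sites were on an H3K27me3 peak in both genotypes, 88 in wild type alone, 7 in null cells alone and 535 in neither. The 295 sites had a median of 31 null and 114 wild-type H3K27me3 reads, and the 88 had 6 null and 32 wild-type reads. The 535 had 1 null and 8 wild-type reads, beside 9 IgG reads. Summed H3K27me3 reads over scaled IgG were 5.81 in null and 14.4 in wild-type cells at the 295, and 1.23 in null and 5.42 in wild-type cells at the 88. At the 535 the null library was below IgG, at 0.355 (0.332 to 0.380), and the wild-type one above it, with an interval of 1.35 to 1.45. At these 535 sites the wild-type H3K27me3 library also had a summit of 6.80 times its flanks (6.48 to 7.13), IgG one of 4.68 (4.48 to 4.88) and the null H3K27me3 library one of 2.29 (2.10 to 2.49). The ratio of HELLS reads to IgG differed little between the states. It was 2.51 in null and 1.80 in wild-type cells for the 295, and 2.44 in null and 1.63 in wild-type cells for the 535.

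H3K27me3 reads were lower in the null library at most of the sites, to about the same extent as at other HELLS peaks. Summed reads were 13680 in null and 48848 in wild-type cells, a ratio of 0.376 (0.369 to 0.383). The median log2 ratio was -1.63 (quartiles -2.29 and -0.98), against -1.64 over all null HELLS peaks. By the 2-fold criterion 502 sites were lower, or 54.3% against 55.8% of all null HELLS peaks, and 1 was higher, or 0.108% against 0.0211%. Less mark per cell, fewer marked cells and a difference between the single libraries themselves cannot be told apart here. When scaled to regions listed in both genotypes, the ratio was 0.760 (0.746 to 0.775), with 114 sites lower and 8 higher. That scaling lifted the median over all null HELLS peaks by 1.02 on the log2 scale, so the size of the fall depends on it while its direction over the summed reads did not change.

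The fall differed between the states of the mark. Median log2 ratios were -1.35 at the 295 sites listed in both genotypes, -2.10 at the 88 listed in wild type alone and -1.81 at the 535 in neither list. The states were defined by peak lists made from the same reads, so this order is a description. Called lower were 226 of the 295 (76.6%), 78 of the 88 (88.6%) and 197 of the 535 (36.8%), against the 55.8% of all null HELLS peaks. Calls also depend on read counts. The 535 held medians of 1 null and 8 wild-type reads, against 31 and 114 at the 295, so their call rates are not comparable. Scaled to regions listed in both genotypes, 36 of the 295, 37 of the 88 and 41 of the 535 were called lower, and 11.2% of all null HELLS peaks. By IgG, H3K27me3 exceeded background at 287 of the 925 sites in null cells, or 31.0% against 17.1% of all null HELLS peaks, and at 451 in wild-type cells, or 48.8% against 34.1%. Of the 22 sites on chromosome X 7 were called lower, with a median log2 ratio of -0.97, where the null library had the larger share of chromosome X reads given above. Without chromosome X the summed ratio was 0.374.

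**Figure D5:**
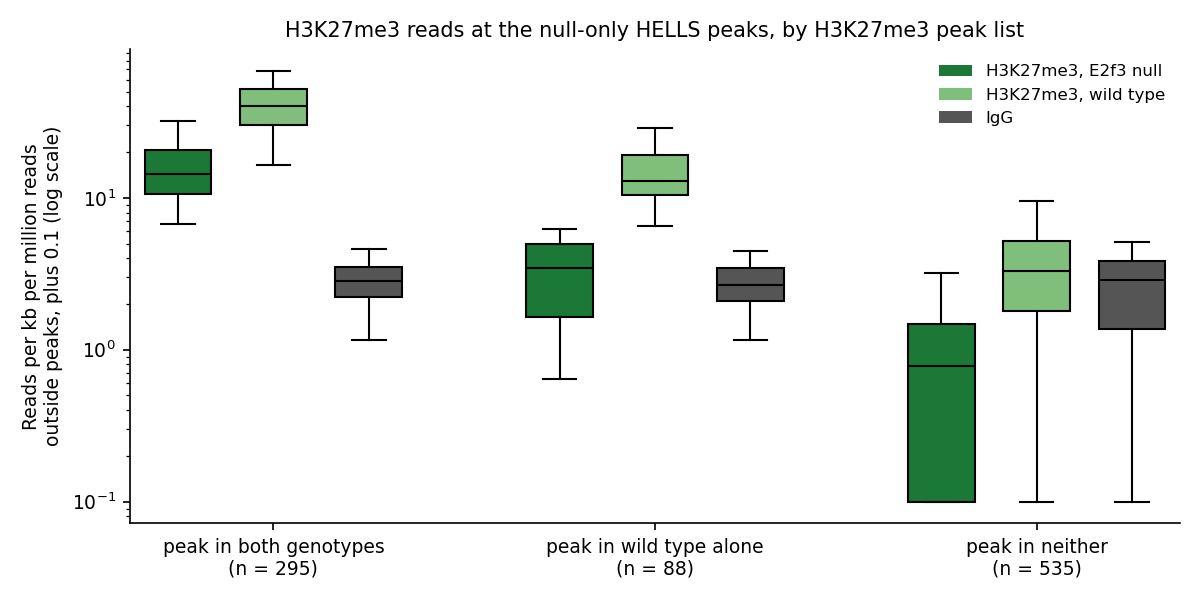
H3K27me3 and IgG read density (RPKM, scaled by reads outside peaks) plus 0.1 on a log axis (y), for sites on an H3K27me3 peak in both genotypes, in wild type alone or in neither (x). Boxes give the median and quartiles over sites and whiskers the 5th and 95th percentiles. Null H3K27me3 lies below wild type in each state, with median counts of 31 in null against 114 in wild type for peaks in both genotypes and 1 in null against 8 in wild type for neither, where null H3K27me3 also lies below IgG.

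Sites with the largest H3K27me3 fall had 0 null reads and 22 to 31 wild-type reads. At chr6:91106619-91107170, which had 0 null and 31 wild-type reads, the interval of the ratio reached up to 0.170. HELLS reads there were 15 in null and 10 in wild-type cells, and IgG reads 9. The next, chr5:118426670-118427313, had 0 null and 26 wild-type H3K27me3 reads, with 38 null and 35 wild-type HELLS reads and 23 IgG reads. The other 3 lay on chromosomes 11 and 2, and 4 of the 5 were in neither H3K27me3 list, as were 57.8% of all 925 sites. Wild-type H3K27me3 reads over scaled IgG were 5.07 (2.36 to 12.1) at the first site and 1.66 (0.913 to 3.05) at the second. At the other 3 they were 2.17 (1.12 to 4.27), 2.52 (1.25 to 5.28) and 0.982 (0.545 to 1.74). A rise with an interval above 1 was found at 1 site, chr5:5290546-5290873, with 7 null reads against 1 in wild type, a ratio of 9.40 (1.21 to 424). HELLS reads at that site were 8 in null and 0 in wild-type cells.

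The longest sites were Polycomb-marked in both genotypes. The region chr2:146047592-146049516 spanned 1925 bp and held 69 null and 56 wild-type HELLS reads, with 138 null and 476 wild-type H3K27me3 reads. At chr8:72405013-72406866 there were 80 null and 63 wild-type HELLS reads, and 157 null and 673 wild-type H3K27me3 reads, the most of the set in both genotypes. At chr4:99323032-99324781 null cells had 65 and wild-type cells 36 HELLS reads (ratio 1.79, 1.18 to 2.77), with 134 null and 460 wild-type H3K27me3 reads. In these 3 the E2F3 antibody had between 34 and 62 null reads and between 39 and 63 wild-type reads, with ratios of 0.906 to 1.02.

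Across the 925 sites, the changes of the 3 antibodies had low rank correlations. The Spearman correlation of the log2 ratio of HELLS with that of H3K27me3 was 0.16, and with that of the E2F3 antibody 0.096. The sites share their libraries and most counts are low, so neither value is a finding. H3K27me3 density of null cells followed that of wild-type cells, with a correlation of 0.82.

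Values on both sides of the rule's edge are given with no test. The sites nearest to a wild-type E2F3 peak lay 10, 18 and 21 bp from it and held 8, 22 and 44 null and 2, 4 and 32 wild-type HELLS reads. The null-only peaks left out with the smallest overlap shared 26, 28 and 31 bp with an E2F3 peak and held 18, 35 and 14 null and 18, 21 and 5 wild-type HELLS reads. At the limit of the authors' score, the 3 lowest sites scored 50.02, 50.03 and 50.15. They held 25, 17 and 15 null and 27, 11 and 14 wild-type HELLS reads.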

How the data were processed

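ChIP-seq reads of 6 antibody libraries and 1 IgG library were used. Per the submitters' processing notes the reads were aligned to mm9, and the aligner is not given in the sources used here. The deposited read files hold 1 aligned read per line, and 98.3% to 98.9% of the reads were 25 bp long. Peaks were called with MACS 1.4.0beta per library against an IgG control named for the genotype, with a p cutoff of 1e-05, per the file headers. The deposited peak tables give a tag count, a score, the fold enrichment as a ratio to the control, and a false discovery rate in percent, and the deposited summit files give the pileup signal at the summit, unscaled. The score served here to rank, select or describe peaks within a list. The control tags that the headers name, 3791438 for null and 3444066 for wild type, sum to 7235504, close to the 7223444 lines of the single IgG file used here.

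With Python 3.11.15, numpy 2.4.6, pandas 2.3.3 and scipy 1.17.1, distinct reads per position and strand were kept, moved 60 bp towards the fragment centre and counted per peak. Ratios were scaled by reads outside all 27092 merged peak regions (21.5 Mb), with 0.5 added to counts for log2 values. Intervals were exact conditional binomial, Clopper-Pearson for shares and Poisson for densities. Calls were made over all 4740 null HELLS peaks, and the criterion was tested on simulated data. Alternatives were every deposited read, other scalings, a 1.5-fold threshold, a score of 100 or more, a 500 bp window, autosomes, and no wild-type peak within 1 kb. Members and lists were chosen with earlier results of these data known.

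Named sites were the 10 of highest score, the 5 largest H3K27me3 falls and rises with an interval excluding 1, the 5 with most E2F3 antibody reads per kb in null cells, the 3 longest, the 3 of lowest score and the 3 on each side of the E2F3 overlap rule. Some of these are given as ranges only. The sites with the largest HELLS ratios and those with higher E2F3 antibody reads were added after their values were seen, as were the H3K27me3 states, the summit and strand measures, and the sites off E2F3 antibody peaks. No sequence is shown, since no genome of the files' build was used here.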

Additional observations from a re-analysis of the deposited data

How the results depend on the processing

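No paired analysis was possible because each group is 1 library and the labels give no replicate numbers. Alternatives were run for the summed ratios, the IgG density, the calls between genotypes, the shares on other lists and named sites, and not for the calls over IgG or the summit ratios. Of these, every value that could be recomputed while counting every deposited read, at the 1.5-fold threshold, on autosomes alone or without sites that have a wild-type peak within 1 kb (846 sites remained) kept its direction, with counts within 1.5 times. Scaling by all distinct reads gave summed ratios of 0.776 for the E2F3 antibody and 0.416 for H3K27me3, with 5 and 2 sites higher. Scaling to regions listed in both genotypes gave 1.29 for HELLS with 65 sites higher, 1.62 for the E2F3 antibody with 154 higher and 1 lower, and 0.760 for H3K27me3 with 8 higher and 114 lower. The turn of the E2F3 antibody follows from that scaling's construction, which sets the median of its shared regions, -1.16 on the log2 scale, to 0. The site on chromosome 7 called higher for HELLS then had a log2 ratio of 0.91 and was no longer called.

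The 180 sites of score 100 or more had 27 sites higher for HELLS, 1 higher and 24 lower for the E2F3 antibody, 0 higher and 115 lower for H3K27me3, an H3K27me3 ratio of 0.406 and an IgG density of 5.79 times the background. Of them 56.1% lay on an E2F3 antibody peak of null cells, 50% on a null and 56.1% on a wild-type H3K27me3 peak. A 500 bp window at the summit gave an H3K27me3 ratio of 0.393, an IgG density of 4.90, 1 site lower for HELLS, 4 higher for the E2F3 antibody and 2 higher for H3K27me3, and the site on chromosome 11 from 120521423 was then called, with a HELLS log2 ratio of 1.15. Off E2F3 antibody peaks of null cells, the ratios were 1.56 for HELLS and 0.624 for the E2F3 antibody, with 0 sites higher for that antibody, 301 lower for H3K27me3 and an IgG density of 4.92. These subsets hold fewer sites, so their counts are smaller in part by construction, but shares differed too. Sites lower for H3K27me3 were 47.7% off E2F3 antibody peaks and 63.9% at score 100 or more, against 54.3% of all 925. The 2 sites higher for the E2F3 antibody both lay on its peaks in null cells. Depth limits single sites: at 776 of the 925 the interval of the HELLS ratio included 1.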
